A study of Mus musculus with 18 samples.

Results

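The subunits of the respiratory chain and of ATP synthase were followed as 1 set of 95 genes among the 37224 genes of the deposited table. The set was chosen by symbol: every gene whose symbol names a structural subunit of complexes I to V was taken (the mt-Nd, mt-Co, mt-Atp and mt-Cytb genes and the Nduf, Sdh, Uqcr, Cox and Atp5 genes), and 4 further matches that are named as pseudogenes were left out. No expression value entered this choice. 13 members lie on the mitochondrial chromosome: 7 of complex I, 1 of complex III, 3 of complex IV and 2 of complex V. The other 82 members are nuclear: 36 of complex I, 4 of complex II, 8 of complex III, 17 of complex IV and 17 of complex V. Cox6c2, which matched by its symbol, is annotated as a processed pseudogene in GENCODE vM21 and was kept, and the pattern does not take a few true subunits, such as Cox4i1, Cyc1 and Ndufab1, which were read from a separate list.

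RNA was sequenced from cells made from mouse embryonic stem cells of strain C57BL/6, in 6 groups of 3 libraries. Neuromesodermal progenitors (NMPs), cells of the posterior embryo that can form spinal cord or paraxial mesoderm, were wildtype or Hoxb1 null. Neural progenitors (NPs) did or did not express Hoxb1, a Hox transcription factor known from hindbrain patterning, each with or without SAG, a Smoothened agonist that turns on hedgehog signalling. NPs expressing Hoxb1 were the ones given DOX (doxycycline, a tetracycline antibiotic that is also known to slow translation by mitochondrial ribosomes). Hoxb1 and DOX therefore cannot be told apart. Whether the 3 libraries of a group came from separate cultures is not stated in the sources used here, so that p-values measure only the spread between these libraries, and it is likewise not given whether a genotype was 1 line or clone.

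The chain is built from 2 genomes. Complex I takes electrons from NADH and complex II from succinate, complex III passes them to cytochrome c, complex IV passes them to oxygen, and complex V uses the resulting proton gradient to make ATP. Complex II is the only one with no subunit encoded in the mitochondrion. The mitochondrial genes are read as long transcripts from 2 strands that are then cut into single RNAs, so that their final levels depend on RNA stability as well as on transcription. Nuclear subunit genes are transcribed 1 by 1, many of them under factors such as NRF1 and the ETS factor GABP.

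Total counts per library ran from 13301476 to 26974315, and the NP libraries with SAG (library numbers 2533 to 2538) were deeper than those without (7390 to 7395) or the NMPs (8085 to 8090). SAG is therefore confounded with the library set. All genes of the mitochondrial chromosome together, members or not, took 0.792% to 1.36% of all counts. Hoxb1 was at 254 ± 16.1 CPM (SD, n = 3) in wild-type NMPs and 15.3 ± 0.844 in null NMPs, at 323 ± 16.0 in NPs with Hoxb1 and 592 ± 21.2 in those with Hoxb1 and SAG, and at 0.358 ± 0.288 and 0.459 ± 0.0662 in NPs without it. CPM here is a gene's counts relative to the library size scaled by TMM factors. NMP markers summed to 1893 to 2415 CPM in the NMPs and to 395 to 686 CPM in the NPs, and neural progenitor markers to 603 to 698 CPM and 2841 to 4501 CPM.

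Some members share much of their sequence with copies elsewhere in the genome, and several of these had almost no counts. 4 runs of bases are shown because they mark where the sharing begins or ends. Capitals mark bases inside the longest exact stretch that the mitochondrial gene shares with an annotated nuclear copy, and lower case marks bases outside it. The sequences are those of GENCODE vM21 on GRCm38, 5′ to 3′. The windows lie at chrM:6354-6433 for mt-Co1, chrM:11003-11082 for mt-Nd4 and chrM:7013-7092 for mt-Co2, all on the plus strand, and Gm28661 is the chromosome 1 copy of mt-Co2.
mt-Co1: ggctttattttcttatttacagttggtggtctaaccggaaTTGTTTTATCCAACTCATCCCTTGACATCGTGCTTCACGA
mt-Nd4: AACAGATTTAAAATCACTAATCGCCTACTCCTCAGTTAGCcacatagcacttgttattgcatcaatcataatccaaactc
mt-Co2: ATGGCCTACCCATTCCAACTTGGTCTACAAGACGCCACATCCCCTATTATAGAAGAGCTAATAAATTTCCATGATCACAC
Gm28661: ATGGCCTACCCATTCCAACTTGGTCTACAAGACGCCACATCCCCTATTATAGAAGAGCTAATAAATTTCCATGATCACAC

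The stretch shared by mt-Co2 and Gm28661 was 681 bases long, against 684 bases for the whole mt-Co2 transcript. In mt-Nd4 the shared stretch covered bases 1 to 876 of 1378, and in mt-Co1 bases 1067 to 1545 of 1545. Cut into 50-base words, mt-Co2 had 0% of its words to itself among all annotated transcripts, mt-Co3 0.136%, mt-Atp6 0.475%, mt-Nd4l 1.21% and mt-Nd3 2.01%. The share was 37.8% for mt-Nd4, 48.9% for mt-Co1, 91.8% for mt-Nd2, 92.4% for mt-Nd5, and 100% for mt-Nd1, mt-Nd6 and mt-Cytb.

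The levels of these genes differed widely. Per kilobase of exon, in NPs without Hoxb1 or SAG, mt-Co1 (the catalytic core of complex IV) stood at 2801 CPM, mt-Cytb (the core of complex III) at 1300, mt-Nd1 at 642 and mt-Nd2 at 393. mt-Co2, mt-Co3 and mt-Atp6 stood at 0.656, 0.240 and 0.383 CPM per kilobase there. These genes are cut from the same long transcript as mt-Co1 and mt-Cytb. mt-Atp8, which had no 50-base word in another annotated transcript (100% unique), was also near 0, at 0 CPM in all wild-type NMP libraries. It overlaps mt-Atp6 by 43 bases, and whether the genome holds an unannotated copy of it was not examined. How the authors' counting treated reads with several matches is not stated in the sources used here, and its part in these levels was not tested. The values of mt-Co2, mt-Co3, mt-Atp6, mt-Atp8, mt-Nd3 and mt-Nd4l are therefore reported as uncertain.

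**Figure D1:**
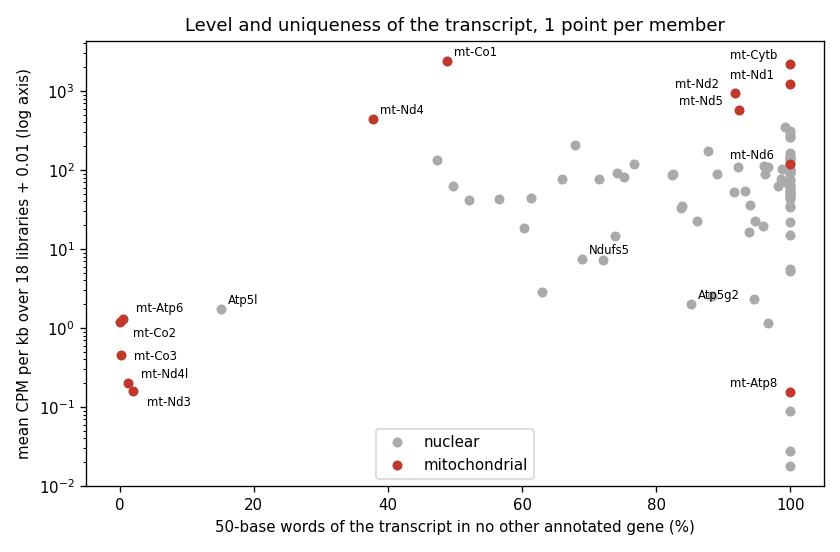
Each point is 1 member; the x axis is the percentage of its 50-base words found in no other annotated gene and the y axis its mean level over 18 libraries in CPM per kilobase plus 0.01, on a log axis. The 5 mitochondrially encoded members (red) with 2.01% or fewer unique words lie near the bottom, mt-Co1 and mt-Nd4 lie high at 48.9% and 37.8%, and mt-Atp8 is low at 100%.

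Of the nuclear members with low counts, 2 are described here, named after their values were seen. Atp5l, a membrane subunit of ATP synthase with 15.2% unique words, had 6 to 38 counts in every library. Ndufs5, an accessory subunit of complex I with 68.9% unique words, had 267 to 381 counts in the 6 NMP libraries and 0 to 10 in the 12 NP libraries, including the deepest. Other nuclear members with fewer unique words than Ndufs5, such as Atp5o (49.7%) and Cox5a (67.95%), had higher counts in NPs. The NMP and NP libraries are different sets, and a difference in how they were counted cannot be told apart from a difference between the cells.

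Paralogous subunits of complexes IV and V differed widely in level. Per kilobase, Cox6a1, the general form of subunit 6a, was at 148 CPM in NPs without Hoxb1 or SAG, and Cox6a2, the heart and skeletal muscle form, at 6.05. Cox6b1 was at 180 and Cox6b2, known from testis, at 140 CPM per kilobase in the same NPs, against 355 and 76.2 in wild-type NMPs. Cox7a2 was at 76.9 and Cox7a1, the muscle form, at 4.56 CPM per kilobase. Of the 3 genes that encode the same c subunit of the ATP synthase rotor, Atp5g3 was at 81.1 CPM per kilobase in those NPs, Atp5g1 at 2.62 and Atp5g2 at 1.07. The level of Atp5g2 rests on few counts. Atp5g2 was counted over 441 bases of exon, against 753 bases for its transcript in GENCODE vM21. Unique words were 100% for Atp5g3, 88.4% for Atp5g1 and 85.2% for Atp5g2. The part of read counting in these low levels was not tested. Cox7b2, Cox8b and Cox8c were at or near 0 in all 18 libraries. Members with too few counts were dropped from the tests, which left 7 mitochondrial and 78 nuclear members in the NMP fit and 10 and 78 in the NP fit.

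In NMPs, loss of Hoxb1 went with lower mitochondrially encoded RNAs and little change in the nuclear subunits. Of 7 mitochondrially encoded members tested, 6 fell and 0 rose, and their median log2 change was -0.15. Of 78 nuclear members, 2 rose and 8 fell, with a median of -0.01. Over all tested genes 28.8% were called in this comparison, 14.9% higher and 13.9% lower (edgeR quasi-likelihood test, adjusted p under 0.05). The share of nuclear members called was thus below that of all genes in both directions. In RNA from whole cultures, a change in the number of cells of a type and a change in RNA per cell cannot be told apart.

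mt-Co1 showed the most certain difference. It was at 3100, 3158 and 3209 CPM in the 3 wild-type libraries and at 2512, 2558 and 2276 in the null libraries. The groups did not overlap, and the null was lower by log2 -0.37 (SE 0.038, adjusted p = 2.31e-07, edgeR). mt-Nd6, the complex I subunit read from the opposite strand to the other 12, was at 81.4, 91.9 and 76.7 CPM in wild type and 67.0, 55.6 and 47.3 in the null, a log2 change of -0.56 (SE 0.13, adjusted p = 0.0185, edgeR). It overlaps mt-Nd5 by 14 bases, and the kit marks strand while the strand setting of the counting is not given.

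The core complex I subunits read from the same strand as mt-Co1 moved less. mt-Nd4 changed by log2 -0.19, mt-Nd2 by -0.15, mt-Nd5 by -0.15 and mt-Nd1 by -0.13, with adjusted p-values of 0.0015, 0.0179, 0.0463 and 0.0277 (edgeR). mt-Cytb was at 2295, 2241 and 2248 CPM in wild type and 2185, 2215 and 1975 in the null (log2 -0.09, adjusted p = 0.0764, edgeR) and was not called, although its groups did not overlap. Replicate 3 of the null was the lowest library for each of these 7 RNAs. The mt-Nd1 and mt-Nd5 calls were each lost in 5 alternatives (adjusted p = 0.0563 to 0.154 and 0.0589 to 0.127). Without wild-type replicate 2, only 3 mitochondrially encoded members were called.

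Among nuclear members, Sdhd, the small membrane anchor of complex II, rose. It was at 166, 176 and 166 CPM in wild type and 193, 190 and 212 in the null (log2 0.22, SE 0.043, adjusted p = 0.000442, edgeR). Sdhc, the other anchor, fell by 0.13 on the log2 scale (adjusted p = 0.0218). Its call did not hold when replicate 2 of either group was left out (0.171 for wild type and 0.0952 for the null). Sdha and Sdhb, the catalytic flavoprotein and iron-sulfur subunits, changed by log2 -0.01 and 0.07 and were not called. Atp5o, part of the stalk of ATP synthase, rose by log2 0.13 (adjusted p = 0.0348). DESeq2 did not call it (0.0712), nor did edgeR when any 1 of the 3 wild-type libraries or null replicate 3 was left out (0.0911 to 0.137). It shares 24.6% of its 50-base words with another annotated gene entry.

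The largest fall was that of Ndufv3, an accessory subunit near the NADH-binding module, which was at 51.4, 59.97 and 56.0 CPM in wild type and 42.0, 41.7 and 48.0 in the null (log2 -0.35, SE 0.064, adjusted p = 0.000205, edgeR). Cox6a1 fell by 0.21 with groups that overlapped, Ndufa13 and Ndufb11 by 0.19 each, and Atp5d, in the central stalk of ATP synthase, by 0.17 on the log2 scale. The Cox6a1 call was lost without wild-type replicate 2 (adjusted p = 0.0626, edgeR). That of Ndufb11 was lost without wild-type replicate 2 or 3 (0.0645 and 0.0517). That of Atp5d was lost without either of these or null replicate 1 (0.0623 to 0.0684). By complex, 4 of 36 nuclear complex I members fell and 0 rose, 0 of 8 complex III members were called, 2 of 13 complex IV members fell, and 1 of 17 complex V members rose and 1 fell. Without null replicate 3 the number of nuclear members called was 19 in place of 10, and without wild-type replicate 2 it was 3.

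**Figure D2:**
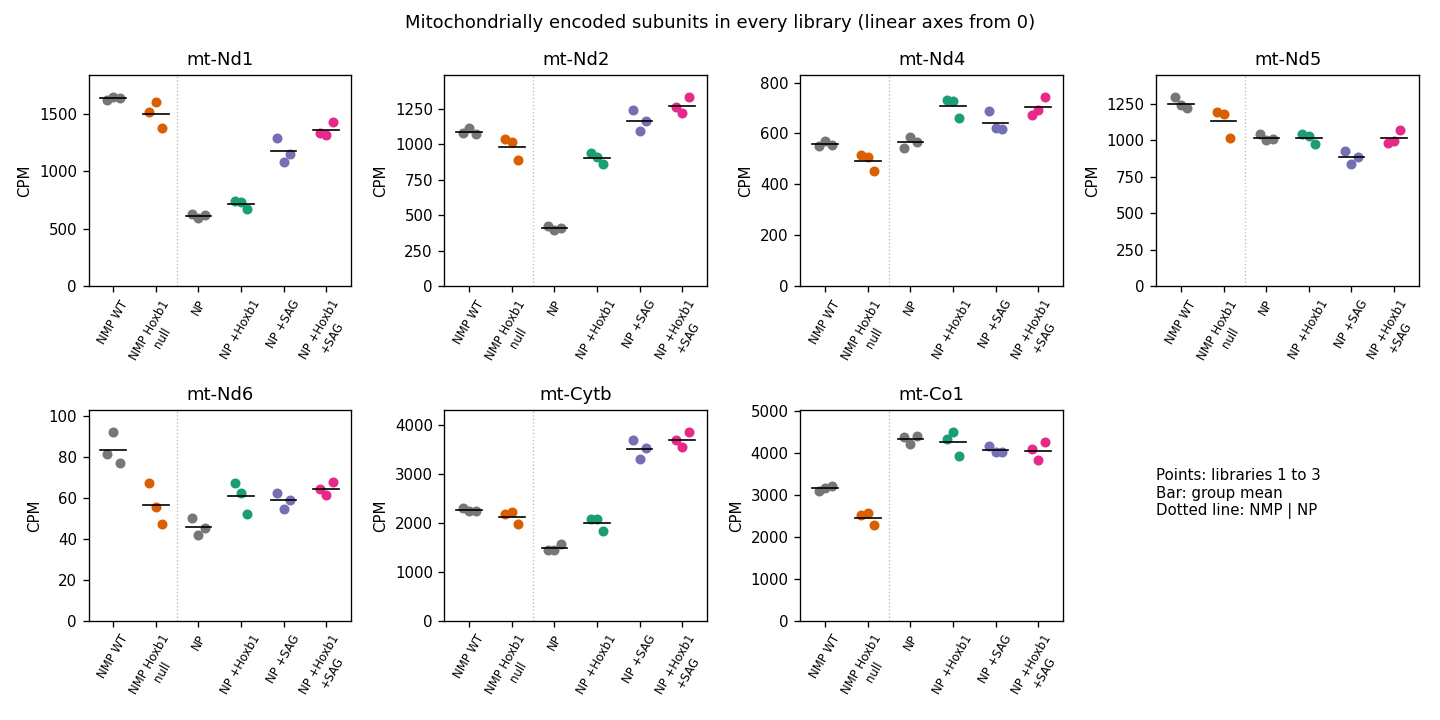
CPM (linear axes from 0) of the 7 mitochondrially encoded members with at least 100 counts in each of the 18 libraries. Points are libraries and bars group means. mt-Co1 is lower in all 3 null NMP libraries (2276 to 2558) than in wild type (3100 to 3209), and mt-Nd2 is higher with Hoxb1 (862 to 940) than without (393 to 422) in NPs without SAG.

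In NPs without SAG, Hoxb1 (with DOX) went with higher levels of both kinds of subunit. Of 10 mitochondrially encoded members tested, 7 rose and 0 fell, with a median log2 change of 0.42. Of 78 nuclear members, 34 rose and 3 fell, with a median of 0.11. Over all tested genes 24.1% were called higher and 22.1% lower, and their median was 0.00. 2 of the 7 that rose, mt-Co2 and mt-Atp6, were at no more than 1.18 CPM in these libraries. Over the 7 mitochondrial members with at least 100 counts in every library, called well measured here, 5 rose and the median was 0.33. The label refers to counts only, and mt-Nd4 and mt-Co1, with 37.8% and 48.9% unique words, are among the 7.

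mt-Nd2 changed most among the well-measured mitochondrial RNAs. It was at 422, 393 and 411 CPM without Hoxb1 and at 940, 910 and 862 with it (log2 1.16, SE 0.044, adjusted p = 1.53e-14, edgeR). mt-Cytb rose from 1443, 1452 and 1567 to 2077, 2068 and 1831 CPM (log2 0.43, SE 0.059, adjusted p = 0.00011, edgeR). In neither RNA did the groups overlap.

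mt-Nd6 rose by log2 0.41, mt-Nd4 by 0.33 and mt-Nd1 by 0.23 (adjusted p = 0.00629, 0.0002 and 0.0199, edgeR). The mt-Nd1 call was lost without any 1 of 5 of the 6 libraries compared (0.0504 to 0.0724). mt-Co1 was at 4365, 4216 and 4403 CPM without Hoxb1 and 4324, 4489 and 3934 with it, and its log2 change was -0.02 (SE 0.043, adjusted p = 0.787, edgeR). mt-Nd5 was at 1044, 1003 and 1009 against 1043, 1032 and 976 CPM (log2 0.01, SE 0.036). Both pairs of groups overlapped. Changes were thus unequal among RNAs that are cut from the same long transcript.

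The same inequality could be read within each library, where scaling between libraries plays no part. The ratio of mt-Nd2 to mt-Nd1 counts, a pair chosen after their values were seen and given as a description, was 0.659 to 0.671 in the 3 NP libraries without Hoxb1 or SAG and 1.24 to 1.29 in those with Hoxb1. It was 0.962 to 1.01 with SAG, 0.930 to 0.947 with Hoxb1 and SAG, and 0.635 to 0.685 over the 6 NMP libraries. The ratio of mt-Cytb to mt-Co1 counts was 0.330 to 0.356 in NPs and 0.461 to 0.480 with Hoxb1. With SAG it was 0.818 to 0.927 over both Hoxb1 states. In NMPs it was 0.700 to 0.740 in wild type and 0.866 to 0.870 in the null.

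Among called nuclear members, the largest rises with Hoxb1 were in complex III. Uqcrh, the hinge protein bound to cytochrome c1, was at 81.0, 74.6 and 76.9 CPM without Hoxb1 and at 116, 122 and 121 with it (log2 0.64, SE 0.042, adjusted p = 1.72e-16, edgeR). Uqcr11, the smallest subunit of the complex, went from 31.6, 28.0 and 28.5 to 43.2, 46.7 and 44.1 CPM (log2 0.61, SE 0.066, adjusted p = 5.25e-10, edgeR). No library of one group reached the range of the other for either gene. Of 8 nuclear complex III members 4 rose and 1 fell. The fall was that of Uqcrq, by 0.12 on the log2 scale (adjusted p = 0.0322), which was lost with DESeq2 (adjusted p = 0.0697). In edgeR the Uqcrq call was also lost with all 18 libraries (adjusted p = 0.0965). The same held without NP replicate 3 (0.169) or NP_Hoxb1 replicate 2 or 3 (0.0909 and 0.115).

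In complex V, 9 of 17 nuclear members rose and 0 fell. Atp5k, the e subunit that helps ATP synthase form dimers, rose from 33.7, 29.5 and 28.5 to 41.9, 38.1 and 46.1 CPM (log2 0.47, SE 0.069, adjusted p = 9.93e-07, edgeR), and Atp5mpl, a small membrane subunit, by log2 0.49. The 2 main catalytic subunits differed from each other. Atp5a1 (alpha) rose from 718, 714 and 711 to 931, 950 and 958 CPM, whereas Atp5b (beta) was at 1129, 1144 and 1149 against 1135, 1173 and 1185 CPM (log2 0.04, adjusted p = 0.281) and was not called.

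Complexes I, II and IV followed. In complex I 10 of 35 rose, led by Ndufb3 (log2 0.44, adjusted p = 2.3e-07), and Ndufv2, which carries an iron-sulfur cluster of the NADH module, fell by 0.10 (adjusted p = 0.0337, and 0.0776 with DESeq2). In edgeR the Ndufv2 call was also lost with no low-count filter (adjusted p = 0.0527). The same held without NP replicate 3 (0.120) or NP_Hoxb1 replicate 1 or 2 (0.0657 and 0.110). Sdhd rose from 77.0, 80.6 and 77.2 to 98.1, 100.4 and 109 CPM (log2 0.40, SE 0.042, adjusted p = 1.61e-10, edgeR) and Sdhc by log2 0.32 (adjusted p = 1.92e-09). Sdha and Sdhb changed by log2 -0.03 and 0.07 and were not called, so that the membrane anchors but not the catalytic subunits of complex II passed the test. The difference between anchors and catalytic subunits was not tested. Without NP_Hoxb1 replicate 1, Sdhb passed it too (adjusted p = 0.0479). In complex IV 9 of 14 rose and 1 fell.

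That fall, Cox6a2, had no like among the members. Cox6a2 had 46, 63 and 59 counts (3.28, 4.53 and 4.14 CPM) in NPs without Hoxb1 or SAG, and 0, 1 and 1 counts in those with Hoxb1. The ratio per total counts, without TMM factors, was 85.9 (95% exact interval 23.4 to 715, counting error only). It was also low with SAG (5 counts over 3 libraries, ratio 59.3, interval 24.9 to 185) and with Hoxb1 and SAG (5 counts). The NMP libraries held 1 to 5 counts each, so it was near 0 in every group but 1. The muscle markers summed to 10.3 to 15.9 CPM in the NPs without Hoxb1 or SAG and to 11.3 to 15.3 with Hoxb1, all 11 of them above 0 counts in both groups. Of 7 muscle markers tested, 1 rose and 4 fell with Hoxb1, with a median log2 change of -0.54. Actc1 (log2 -1.58) and Myh6 (-0.72) fell and Acta1 (1.35) rose. The part of muscle cells in the Cox6a2 level was not tested.

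**Figure D3:**
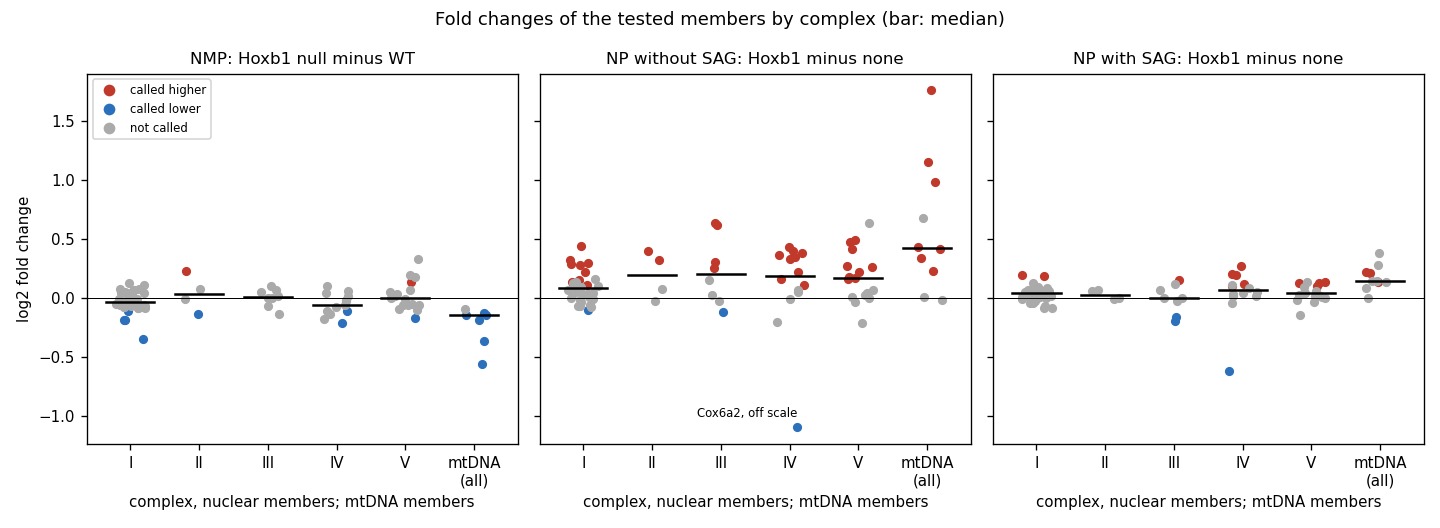
Log2 fold changes (y axis) of the tested members, nuclear members by complex and mitochondrially encoded members together; red and blue points were called higher and lower at an adjusted p under 0.05, grey points were not, and bars are medians. Mitochondrial members lie below 0 in null NMPs (median -0.15) and above 0 in NPs with Hoxb1 without SAG (median 0.42); Cox6a2 in the middle panel is drawn at the lower edge.

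Promoters are shown for the 3 named genes with most rise among those in which a searched motif was found. They were picked for holding a motif and show where it lies. Each run is 250 bases before to 50 after the RefSeq start on GRCm38.p6, 5′ to 3′ on the gene's own strand (minus for all 3), at chr4:116075021-116075320 for Uqcrh, chr10:80406772-80407071 for Uqcr11 and chr5:108434350-108434649 for Atp5k. Capitals mark a match to CCGGAAGT (the ETS motif, bound by GABP) in Uqcrh and Uqcr11 and to the NRF1 motif in Atp5k, whose letters are those in capitals, on either strand.
Uqcrh: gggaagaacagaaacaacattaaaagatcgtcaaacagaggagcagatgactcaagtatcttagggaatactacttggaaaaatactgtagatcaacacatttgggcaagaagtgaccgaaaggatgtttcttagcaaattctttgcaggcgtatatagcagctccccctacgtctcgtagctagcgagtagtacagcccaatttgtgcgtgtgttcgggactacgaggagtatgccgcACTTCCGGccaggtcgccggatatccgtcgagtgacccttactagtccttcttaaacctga
Uqcr11: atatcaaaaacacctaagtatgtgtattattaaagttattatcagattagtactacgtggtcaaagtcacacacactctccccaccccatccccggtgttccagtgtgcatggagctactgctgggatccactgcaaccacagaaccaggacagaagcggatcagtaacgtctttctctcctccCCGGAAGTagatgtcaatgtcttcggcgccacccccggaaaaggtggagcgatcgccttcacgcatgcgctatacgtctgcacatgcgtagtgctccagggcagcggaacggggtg
Atp5k: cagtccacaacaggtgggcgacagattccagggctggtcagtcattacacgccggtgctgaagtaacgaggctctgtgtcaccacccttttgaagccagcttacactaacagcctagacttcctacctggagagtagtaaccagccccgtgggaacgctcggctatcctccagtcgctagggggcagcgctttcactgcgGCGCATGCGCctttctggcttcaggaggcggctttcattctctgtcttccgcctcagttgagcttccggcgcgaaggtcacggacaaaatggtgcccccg

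66 of the 95 members had such a promoter sequence, matched by symbol. The NRF1 motif was in 5 of them (7.58%) and in 1.07% of all 27025 genes with a promoter. The ETS motif was in 5 members (7.58%) against 4.31% of all genes, and AAGATGGCG, bound by YY1, in 7 members (10.6%) against 1.64%. The motifs were searched on both strands and do not overlap one another in these 3 promoters. The members that hold a motif did not all rise with Hoxb1: Cox6a1, Atp5g2, Ndufa11 and Uqcrc1 hold the NRF1 motif and were not called. Ndufb3 (log2 0.44) and Sdhd (0.40) hold none of these motifs and rose. Whether a motif goes with a rise was not tested. A match is a description of letters in these windows.

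With SAG present, the Hoxb1 effect on the members was smaller. Of 10 mitochondrially encoded members 3 rose and 0 fell, with a median log2 change of 0.14, and of 78 nuclear members 12 rose and 3 fell, with a median of 0.04. Over all tested genes 21.4% were called higher and 21.9% lower. The nuclear share called higher was thus below that of all genes. The mitochondrial RNAs that rose were mt-Nd1 (log2 0.22, adjusted p = 0.0235, and 0.0515 to 0.0659 without any 1 of 3 libraries), mt-Nd5 (0.21, adjusted p = 1.32e-05) and mt-Nd2 (0.13, adjusted p = 0.0152, edgeR, and 0.0521 to 0.0861 in 6 alternatives).

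mt-Nd5 was at 926, 836 and 886 CPM with SAG alone and 984, 996 and 1071 with SAG and Hoxb1, without overlap. mt-Nd2 was at 1240, 1096 and 1161 against 1265, 1222 and 1330 CPM, and these groups overlapped. mt-Nd4 (log2 0.13, adjusted p = 0.0567), mt-Nd6 (0.14, 0.2), mt-Cytb (0.08, 0.286) and mt-Co1 (0.00, 1.0) were not called. Some alternatives did call 2 of these. mt-Nd4 passed with DESeq2 (adjusted p = 0.0182) and in edgeR with only the 6 libraries compared (0.0179). mt-Nd6 passed in edgeR with only those 6 libraries (0.0186). The mitochondrial count of 3 rested on single libraries. It was 1 without NP_SAG replicate 3 or NP_Hoxb1_SAG replicate 3 and 5 without NP_Hoxb1 replicate 3.

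The nuclear rises with SAG were led by Cox5a, a subunit of complex IV, at 148, 135 and 141 CPM without and 168, 157 and 161 with Hoxb1 (log2 0.20, SE 0.034, adjusted p = 3.56e-06, edgeR). Cox6c and Ndufb8 rose by log2 0.19 each, Ndufa4, which is bound to complex IV, by 0.18, and Uqcrh by 0.15. None of the 4 Sdh genes was called (log2 -0.01 to 0.07). Uqcr10, a small complex III subunit, fell from 117, 108 and 116 to 99.7, 97.2 and 99.3 CPM (log2 -0.19, SE 0.037, adjusted p = 3.39e-05, edgeR), and Uqcrq by 0.17.

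Of the 3 nuclear members that fell, Uqcr10 and Uqcrq lie on chromosome 11. The median log2 change of all 1363 genes tested on chromosome 11 was -0.13 in this comparison, and that of the 4 members there (Uqcr10, Uqcrq, Atp5g1 and Atp5h) was -0.16. Without SAG the same medians were -0.01 and -0.01. Hoxb1 itself lies on chromosome 11. The part of the chromosome in these falls was not tested. The third fall was that of Cox7a1, on chromosome 7, at 2.89, 2.44 and 2.30 against 1.45, 1.81 and 1.64 CPM.

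The difference between these Hoxb1 effects, with SAG minus without, was tested in the same fit. Of 78 nuclear members 20 had a lower effect with SAG and 1 a higher one, and of 10 mitochondrial members 3 and 1, against 18.6% and 16.8% of all tested genes. Uqcr11 differed by log2 -0.62 (SE 0.082, adjusted p = 1.12e-07), Uqcrh by -0.49 (SE 0.055, adjusted p = 1.21e-09) and Sdhd by -0.40 (SE 0.055, adjusted p = 1.21e-07, edgeR). 5 of the 8 nuclear complex III members and both membrane anchors of complex II were among the 20, and the 1 higher was Cox6a2. mt-Nd2 differed by log2 -1.02 (SE 0.061, adjusted p = 4.26e-11) and mt-Cytb by -0.35, while mt-Nd5 differed by 0.20 in the other direction. mt-Nd4 was not called here but passed with DESeq2 (log2 -0.20, adjusted p = 0.0106). The difference runs across the library sets, and a SAG dependence and a set dependence cannot be told apart.

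SAG itself went with the broadest rise. Without Hoxb1, 62 of 78 nuclear members rose and 2 fell, and 8 of 10 mitochondrial members rose and 1 fell, with median log2 changes of 0.39 and 1.09. Over the 7 well-measured mitochondrial members, 5 rose and 1 fell and the median was 0.35. Over all tested genes 72.7% were called, 36.5% higher and 36.3% lower. With Hoxb1, 60 nuclear members rose and 4 fell and 6 mitochondrial members rose and 0 fell (medians 0.26 and 0.61), against 36.4% and 35.8% of all genes, 72.2% in either direction. Of the 7 well-measured mitochondrial members 3 rose, mt-Nd1, mt-Nd2 and mt-Cytb, and the median was 0.09. The other 3 that rose were mt-Co2, mt-Co3 and mt-Atp6, near 0 CPM, of which mt-Co2 and mt-Co3 were not called with DESeq2 (adjusted p = 0.0615 and 0.0530). These comparisons share libraries with the Hoxb1 comparisons, and the values are given side by side only.

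mt-Nd2 was at 1240, 1096 and 1161 CPM with SAG against 422, 393 and 411 without (log2 1.51, SE 0.044, adjusted p = 4.46e-17), and mt-Cytb at 3685, 3292 and 3516 against 1443, 1452 and 1567 (log2 1.24, SE 0.060, adjusted p = 4.03e-09, edgeR). mt-Nd1 rose by log2 0.94, mt-Nd6 by 0.35 and mt-Nd4 by 0.19. The mt-Nd4 call was lost without NP replicate 1 (adjusted p = 0.0510, edgeR). mt-Nd5 fell by 0.20 (adjusted p = 7.82e-06), and mt-Co1 changed by -0.09 (adjusted p = 0.0749, and 0.0144 to 0.0323 in 7 alternatives that called it). mt-Rnr2, the large ribosomal RNA of the mitochondrion and no subunit, went the other way, from 642 ± 32.8 to 162 ± 24.1 CPM (SD, n = 3). Its share in a library made by poly(A) selection also depends on that selection, whose part was not tested.

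Atp5k led the nuclear members, at 66.9, 60.5 and 65.4 CPM with SAG against 33.7, 29.5 and 28.5 without (log2 1.07, SE 0.061, adjusted p = 1.89e-16, edgeR). Cox7b (log2 1.03), Atp5j, the coupling factor 6 of ATP synthase (0.97), Uqcr11 (0.95) and Ndufa1 (0.87) followed. All 4 Sdh genes rose, from Sdha (log2 0.08) to Sdhd (0.64). The Sdha call was lost without NP_SAG replicate 3, NP replicate 1 or NP replicate 2 (adjusted p = 0.0875, 0.0607 and 0.147, edgeR). With Hoxb1 the leading rises were Atp5j (0.83), Cox7b (0.78), Atp5j2 (0.77), Ndufa1 (0.68) and Atp5k (0.64). Falls were few: Atp5s, a factor named after ATP synthase, fell by 0.41 without Hoxb1, and Cox6b2, Ndufa8, Cox7a2l and Uqcrc2 fell by 0.46, 0.17, 0.09 and 0.08 with it. The Cox7a2l call was lost in 9 alternatives (adjusted p = 0.0545 to 0.291) and the Uqcrc2 call in 7 (0.0587 to 0.337), upper-quartile scaling among them for both.

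Short genes as a whole were higher in the SAG libraries. Without Hoxb1, the median log2 change was 0.34 over the 1558 tested genes with under 1000 bases of exon and -0.15 over the 6706 genes with 4000 or more. The median nuclear member has 1234 bases, against 3425 for all genes in the NP fit. Within the class under 1000 bases, the 30 members had a median of 0.51, and in the class from 2000 to under 4000 bases the 17 members had 0.28 against 0.06 for all genes. With Hoxb1, the members under 1000 bases had a median of 0.34 and all genes of that length 0.35, and from 2000 to under 4000 bases 0.19 against 0.05. In the Hoxb1 comparison without SAG, genes under 1000 bases had a median of 0.05 and the members of that length 0.13. The part of gene length in the SAG results was not tested beyond these medians.

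**Figure D4:**
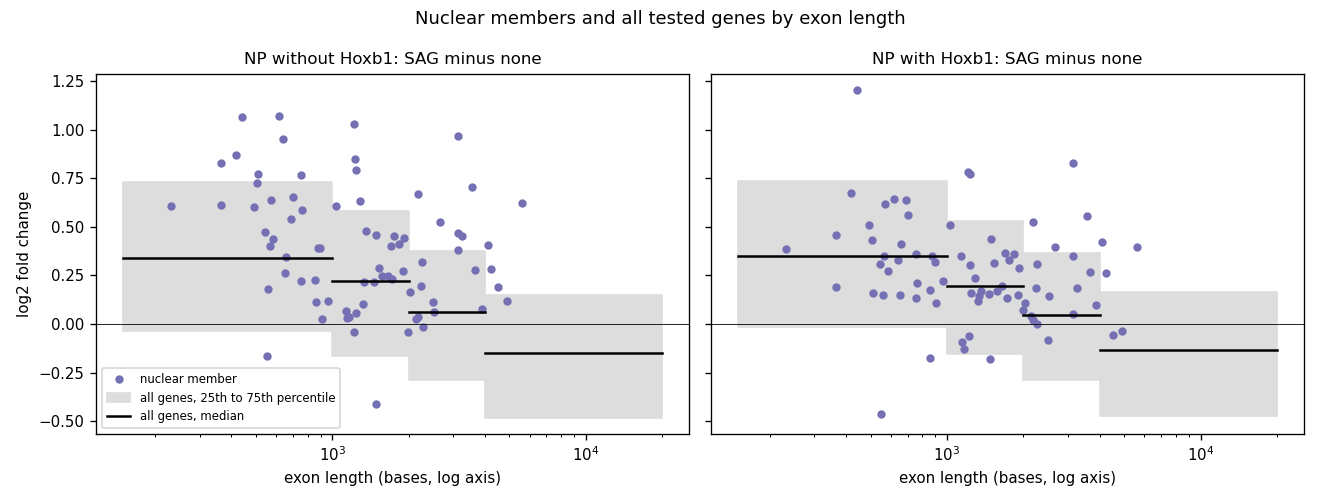
Log2 fold change with SAG (y axis) against exon length (x axis, log scale) for the nuclear members (points), with the median (line) and the 25th to 75th percentiles (grey) of all tested genes in 4 length classes; Cox6a2 is left out. Most members lie above 0, as does the median of all genes under 1000 bases (0.34 without and 0.35 with Hoxb1).

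The balance of the 2 genomes was read as the summed CPM of the mitochondrial members over that of the nuclear members in each library, on the log2 scale and with no test. In NMPs it was -0.069, -0.104 and -0.065 in wild type and -0.196, -0.214 and -0.441 in the null, so that the null was lower without overlap and replicate 3 stood lowest. In NPs it was 0.231, 0.222 and 0.249 without Hoxb1 or SAG and 0.342, 0.328 and 0.158 with Hoxb1, which overlapped. With SAG it was 0.343, 0.301 and 0.311, and with Hoxb1 and SAG 0.328, 0.340 and 0.447. The summed nuclear members rose from 7199 ± 85.8 to 7959 ± 114 CPM with Hoxb1 and stood at 9215 ± 280 CPM with SAG (SD, n = 3). Without mt-Co1, the most abundant mitochondrial member, the log2 difference in balance with Hoxb1 without SAG was 0.24 in place of 0.04.

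**Figure D5:**
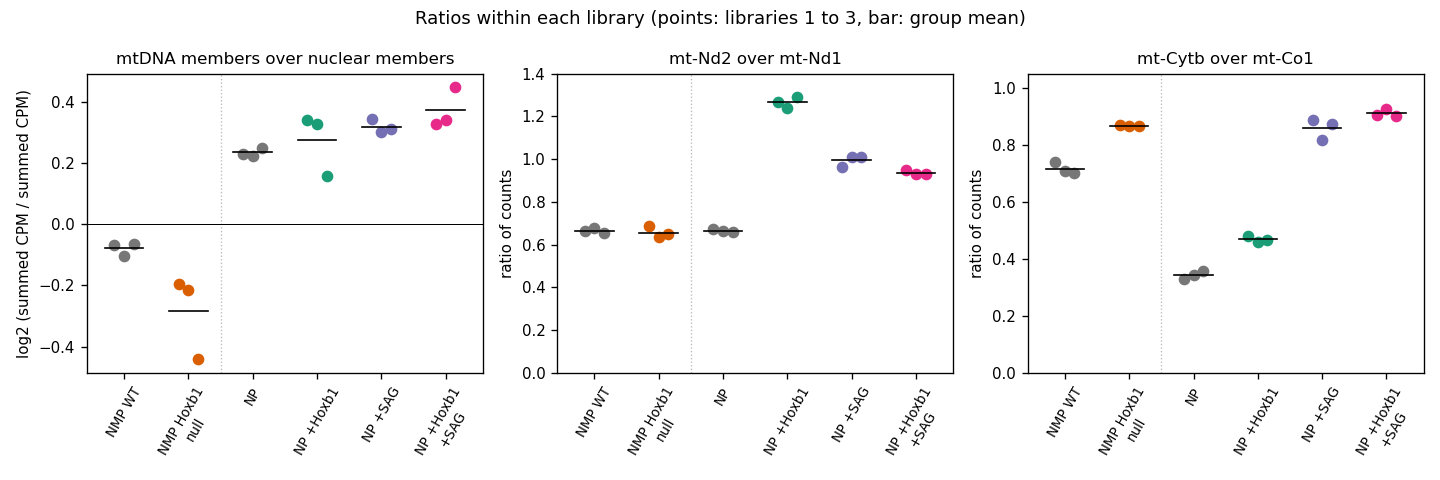
Per library, the log2 ratio of summed CPM of mitochondrially encoded over nuclear members (left) and the ratios of counts of mt-Nd2 to mt-Nd1 (middle) and mt-Cytb to mt-Co1 (right); points are libraries and bars group means. The mt-Nd2 ratio is 1.24 to 1.29 in NPs with Hoxb1 and 0.659 to 0.671 in NPs without, and the 3 null NMP libraries lie lowest in the left panel.

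Counts for other genes of the organelle are read against the shares of all tested genes, which were 24.1% higher and 22.1% lower with Hoxb1 without SAG, 21.4% and 21.9% with SAG, 36.5% and 36.3% for SAG without Hoxb1, and 14.9% and 13.9% in null NMPs. Of 76 mitochondrial ribosomal proteins, which make the 13 mitochondrial proteins, 12 rose (15.8%) and 19 fell with Hoxb1 without SAG (median log2 -0.04), and 56 rose (73.7%) and 5 fell (6.58%) with SAG without Hoxb1 (median 0.29). Of 36 genes for expression of mitochondrial DNA, 2 rose and 5 fell with Hoxb1 without SAG. Among these, Tefm, the mitochondrial elongation factor, fell from 17.2 ± 0.82 to 13.9 ± 0.45 CPM. In null NMPs 1 rose and 3 fell, Grsf1, an RNA-binding protein of mitochondrial RNA granules, by 0.32. Of 48 assembly factors 7 rose and 10 fell with Hoxb1 without SAG, of 18 genes of the citric acid cycle 8 rose and 2 fell, and of 22 import and carrier genes 7 rose and 7 fell (31.8% each). The share of ribosomal proteins that fell with Hoxb1 was near that of all genes.

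Of 17 genes of the mitochondrial and integrated stress response, 2 rose (11.8%) and 10 fell (58.8%) with Hoxb1 without SAG (median log2 -0.29), and with SAG 4 rose and 5 fell. Atf5, a transcription factor of the mitochondrial unfolded protein response, was at 767 ± 80 CPM without Hoxb1 or SAG and 59.3 ± 2.0 with Hoxb1 (log2 -3.68, SE 0.092, adjusted p = 5.23e-10, edgeR). Atf5 was also low with SAG alone (50.5 ± 4.2 CPM) and with Hoxb1 and SAG (46.5 ± 2.2). In NMPs it was at 58.2 ± 2.1 CPM in wild type and 88.2 ± 5.4 in the null. In null NMPs 8 of 16 rose and 3 fell (18.8%), beside 14.9% and 13.9% of all genes. Of 15 nuclear regulators of these genes, 5 rose and 7 fell with Hoxb1 without SAG. Esrrg, a nuclear receptor known to bind subunit genes, rose from 6.85 ± 0.60 to 19.7 ± 0.73 CPM. Esrrb, another of the 15, fell from 49.9 ± 4.1 to 24.0 ± 1.0 CPM. With SAG without Hoxb1 3 regulators rose (20.0%) and 5 fell (33.3%), and Ppargc1a, the coactivator PGC-1 alpha, fell from 16.7 ± 1.1 to 3.67 ± 0.14 CPM.

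Of 22 respiratory genes that the symbol rule does not take, 3 rose and 4 fell with Hoxb1 without SAG. Cox4i1, the main form of the largest nuclear subunit of complex IV, was at 331 ± 7.61 CPM without and 339 ± 7.83 with Hoxb1, and it fell from 424 ± 11.6 to 385 ± 30.6 CPM in null NMPs (log2 -0.14, adjusted p = 0.0175, edgeR).

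Markers of other cell types also differed between the NP groups. Neuron markers summed to 1709 to 1788 CPM without Hoxb1 or SAG and 2535 to 2685 with Hoxb1, and pluripotency markers to 301 to 341 and 153 to 179. Mesenchyme markers summed to 486 to 512 CPM without either, 1003 to 1036 with Hoxb1 and 2237 to 2274 with SAG, with all 10 of each list detected. With SAG without Hoxb1, neuron markers summed to 1014 to 1049 CPM and all 10 fell, and endoderm markers to 134 to 140 CPM against 37.7 to 47.0 without SAG, with 5 of 5 tested higher. Much of that endoderm sum was Foxa2, at 79.1 ± 2.09 CPM with SAG and 8.73 ± 0.819 without. Sox17 and Gata6 stood at 2.25 and 1.56 CPM with SAG. NMP markers summed to 2171 to 2415 CPM in wild-type NMPs and 1893 to 1978 in the null, without overlap, and 10 of 11 fell (median log2 -0.43). In NMPs pluripotency markers summed to 753 to 814 CPM in wild type and 884 to 1063 in the null. The part of these cells in the levels of the subunits was not tested.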

How the data were processed

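RNA sequencing of 18 libraries was analysed. The authors deposited 1 table of whole-number read counts by Ensembl gene ID. Per the submitters' processing notes, the authors used bcl2fastq 1.8.2, featureCounts 1.4.6 and the mm10 genome. The aligner, strand setting and handling of multiply mapping reads are not stated in the sources used here. Per the labels' protocols, poly(A) RNA was selected and strand-specific libraries were made with 15 PCR cycles. Symbols were matched for 35449 of 37224 genes.

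Counts were fitted in R 4.3.3 with edgeR 4.0.16 (filterByExpr by group, TMM, estimateDisp, glmQLFit robust, glmQLFTest; SE is the log2 change over the square root of F). The 6 NMP libraries (15032 genes) and the 12 NP libraries (16238 genes) were fitted apart. P-values were adjusted by Benjamini-Hochberg across every gene in a fit, and calls were made at 0.05. Levels are CPM with TMM factors over all 18 libraries, a scaling that differs slightly from that of the fits. On simulated data the NMP comparison recovered 85% of 1.25-fold changes over 14872 genes and the NP comparison without SAG 75% over 16000 genes, and both recovered 100% of 2-fold changes.

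All measured mitochondrial members and the 4 Sdh genes were named throughout. In each comparison the rule added up to 5 called nuclear members with the largest rise and 5 with the largest fall among those with at least 10 CPM, isoform partners for their levels, and up to 3 genes per list. The members and lists were chosen with earlier results of these data known. Ndufs5, Atp5l, Atp5b, Cox7a1 (for its fall) and the motif genes were named after their values were seen. Alternatives were DESeq2 1.42.0, upper-quartile scaling, scaling without mitochondrial genes, other low-count filters, a replicate block, other sets of libraries, and leaving out each library.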

Additional observations from a re-analysis of the deposited data

Results flagged for a closer look

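The tested difference of the Hoxb1 effects in NPs, with SAG minus without SAG, passed the adjusted threshold (edgeR) for 11 of the members that the naming rule covers. Among mitochondrially encoded members the log2 difference was -1.02 for mt-Nd2, -0.35 for mt-Cytb, 0.20 for mt-Nd5 and -1.38 for mt-Atp6, the last at no more than 2.38 CPM in any library and not called with DESeq2 (adjusted p = 0.0677), without NP replicate 1 (0.0709) or without NP_Hoxb1 replicate 3 (0.109). Among complex II and III members it was -0.27 for Sdhc, -0.40 for Sdhd, -0.62 for Uqcr11 and -0.49 for Uqcrh. In complexes IV and V it was -0.41 for Cox7a2, -0.42 for Atp5a1 and -0.43 for Atp5k. In each of these but mt-Nd5 the log2 change with Hoxb1 was lower with SAG than without. SAG and the library set cannot be told apart here.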

How the results depend on the processing

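Over 121 named results and 2263 alternative fits of them, 2145 kept their side of the threshold, 84 lost a call and 34 gained one. In 0 did the direction change where either fit made a call. A change of direction between fits without a call was not counted apart. In NPs with SAG the count of mitochondrial members called with Hoxb1 (3) was 5 with no low-count filter or with only the 6 libraries compared. The count for SAG with Hoxb1 (6) was 3 under the stricter filter, which tests fewer genes, and 3 over the well-measured members alone, an alternative chosen after seeing the data. Leaving out 1 library at a time gave, for mitochondrial and then nuclear members called, 3 to 7 and 3 to 19 in NMPs. In NPs it gave 5 to 7 and 30 to 37 for Hoxb1 without SAG, 1 to 5 and 12 to 16 with SAG, and 3 to 5 and 18 to 24 for the difference. For SAG it gave 8 to 10 and 59 to 66 without Hoxb1, and 4 to 7 and 59 to 64 with it.

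The libraries were fitted as unpaired. Deviations of same-numbered libraries correlated at 0.0017 to 0.155 between NPs with SAG and with Hoxb1 and SAG, the closest pair of groups. Libraries with different numbers were not compared, so these values cannot decide whether the numbers pair the libraries. With the replicate number as a replicate block, 6 mitochondrial and 8 nuclear members were called in NMPs, 7 and 38 for Hoxb1 without SAG, 3 and 17 with SAG, 5 and 21 for the difference, and 9 and 65 and 6 and 64 for SAG without and with Hoxb1.

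The balance of mitochondrial over nuclear members depended on how it was formed. Its log2 difference for Hoxb1 without SAG was 0.04 from sums, 0.44 from the median of log2 CPM and 0.24 without the most abundant mitochondrial gene. For the difference of the Hoxb1 effects the values were 0.01, -0.41 and -0.14, and the direction changed. For SAG they were 0.08, 0.55 and 0.49 without Hoxb1, and with Hoxb1 0.10 from sums and 0.35 without that gene. With 1 library left out the balance was -0.25 to -0.13 in NMPs (-0.20 with all), 0.01 to 0.10 for Hoxb1 without SAG, 0.02 to 0.08 with SAG, and -0.05 to 0.04 for the difference, where the sign changed. For SAG it was 0.07 to 0.09 without and 0.04 to 0.13 with Hoxb1.

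Depth limits the 6 mitochondrial members near 0 and any fold of Cox6a2, and how reads with several matches were counted is unknown.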
